A study of Homo sapiens with 4 samples.

Results

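The urokinase system was followed through 5 genes in H1299 cells, a human lung carcinoma line, after treatment with ginseng nanoparticles or with phosphate-buffered saline (PBS). The genes, taken by symbol from the 61541 gene rows of the count tables, were PLAU, PLAUR, PLAT, SERPINE2 and SERPINB2. All 5 were among the 15778 genes that passed the filter on low counts. Each group had 2 libraries of polyadenylated RNA, and both groups were cells of the same line grown under the same protocol in medium with fetal bovine serum. The labels give no dose, exposure time or plant part for the nanoparticles, and although the nanoparticle titles also say control, the groups follow the treatment label. Depth on genes was 24979081 and 24863313 counts with nanoparticles and 22252686 and 22456882 counts with PBS. Nothing in the labels says that the replicates were separate cultures, so the p-values rest on a spread between libraries that may be only technical.

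Urokinase, the product of PLAU, is a secreted serine protease that cuts plasminogen into plasmin, a broad protease that degrades fibrin and matrix proteins and activates other proteases. Its receptor, encoded by PLAUR, is held in the outer membrane by a lipid anchor and brings urokinase to the cell surface, where it also touches integrins and the matrix protein vitronectin. PLAT encodes the other plasminogen activator, best known for dissolving fibrin in blood, and the serpins trap such proteases in a covalent complex that is then taken up by the cell. In carcinoma cells the system is known for its part in invasion and migration, and the study asked how the nanoparticles act on the migration of cancer cells.

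The DNA just upstream of the RefSeq starts is shown for PLAU, whose change is the main result, and for PLAUR and SERPINB2, which like PLAU had lower levels in both nanoparticle libraries. PLAT, also lower in both, was not searched here. Each line gives 250 bases up to the base before the start, 5′ to 3′ on the gene's own strand, from RefSeq on GRCh38.p14. Capitals mark matches to the motifs listed after the sequences. For PLAU, RefSeq has 2 starts, and the gene counts do not tell which was used.
PLAU upstream start, chr10:73910360-73910609, plus strand: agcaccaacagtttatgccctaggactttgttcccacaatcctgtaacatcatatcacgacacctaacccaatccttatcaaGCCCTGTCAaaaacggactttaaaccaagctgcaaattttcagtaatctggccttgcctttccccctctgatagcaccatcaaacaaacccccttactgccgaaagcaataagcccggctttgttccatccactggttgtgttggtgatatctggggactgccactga
PLAU downstream start, chr10:73910882-73911131, plus strand: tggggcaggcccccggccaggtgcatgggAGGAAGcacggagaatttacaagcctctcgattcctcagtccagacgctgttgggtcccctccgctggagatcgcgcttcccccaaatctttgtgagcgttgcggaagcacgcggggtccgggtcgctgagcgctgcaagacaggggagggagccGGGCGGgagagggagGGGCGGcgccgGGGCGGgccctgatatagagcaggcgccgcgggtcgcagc
PLAUR, chr19:43670170-43670419, minus strand: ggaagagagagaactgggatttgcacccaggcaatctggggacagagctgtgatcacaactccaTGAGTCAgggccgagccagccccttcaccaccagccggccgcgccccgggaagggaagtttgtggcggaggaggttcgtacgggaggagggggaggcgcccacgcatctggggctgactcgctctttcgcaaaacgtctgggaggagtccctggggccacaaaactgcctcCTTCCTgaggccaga
SERPINB2, chr18:63887455-63887704, plus strand: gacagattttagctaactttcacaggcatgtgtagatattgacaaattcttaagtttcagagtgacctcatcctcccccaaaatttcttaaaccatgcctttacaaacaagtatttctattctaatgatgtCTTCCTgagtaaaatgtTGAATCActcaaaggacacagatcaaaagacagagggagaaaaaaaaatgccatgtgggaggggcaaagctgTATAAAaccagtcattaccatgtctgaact

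Both strands of these windows and of the 2 windows of SERPINE2 were searched for 6 motifs, and no matches overlapped. The AP-1 motif (TGANTCA), held by 6.6% of 35116 RefSeq windows of the same length, was present in PLAUR from -186 to -180 and in SERPINB2 from -102 to -96, counted from the start. The downstream PLAU window held 3 GC boxes (GGGCGG, in 42.6% of windows) between -66 and -35 and an ETS core (AGGAAG, in 28.7%) from -221 to -216. An ETS core was also present in PLAUR and in SERPINB2. The core of the antioxidant response element (TGACNNNGC, in 10.9%) was matched in the upstream PLAU window from -168 to -160 and at 2 places in the SERPINE2 windows, which also held GC boxes. SERPINB2 had the TATA box (TATAAA, in 10.7%) from -30 to -25, and the NF-kB motif (in 1.7%) had 0 matches in the 6 windows. A match is a description of the letters and not a site of binding.

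PLAU fell with nanoparticles and was the only one of the 5 genes to pass the test. Its level was 679 and 677 CPM (read counts scaled to library size by TMM) in nanoparticle replicates 1 and 2, against 749 and 761 CPM in PBS replicates 1 and 2. The nanoparticle libraries lay close together and both lay below both PBS libraries. The means were 678 ± 1.44 CPM with nanoparticles and 755 ± 8.62 CPM with PBS (SD, n = 2 each), from between 16669 and 17019 counts per library. The log2 fold change was -0.15 (SE 0.024, adjusted p = 0.00091 in the quasi-likelihood test of edgeR with Benjamini-Hochberg adjustment), which is a change of -10.2% with a 95% interval of -13.3% to -7.00%. Of all tested genes 2.58% passed in either direction and 0.83% passed lower. Ordered by size of fold change, PLAU was number 75 of the 131 genes that fell, whose median log2 fold change was -0.17. In 15 alternatives the log2 value of PLAU ranged from -0.17 to -0.14. The call was lost when PBS replicate 1 was left out (edgeR adjusted p = 0.502), and likewise for PBS replicate 2 (0.47), for nanoparticle replicate 2 (0.0564) and with no low-count filter (0.544). With a lone PBS library 0 genes passed in edgeR's test, with 1562 (PBS replicate 1 left out) and 1672 (PBS replicate 2 left out) at an unadjusted p under 0.05, and DESeq2 on all 4 libraries passed 90.

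PLAUR, the receptor, had 300 and 292 CPM in the nanoparticle libraries and 315 and 324 CPM in the PBS libraries. The groups did not overlap, and the gap between them, from 300 to 315 CPM, was wider than the gap within either group. Its means were 296 ± 5.77 CPM with nanoparticles and 319 ± 6.81 CPM with PBS (SD, n = 2 each). The log2 fold change of -0.11 (SE 0.031) did not pass at an edgeR adjusted p of 0.0595, and its 95% interval runs from a change of -11.5% to one of -3.22%. The result lay at the threshold: PLAUR passed in 5 of 15 alternatives, for example with upper-quartile scaling (adjusted p = 0.0329) and by limma-voom (0.0409), and not by DESeq2 (0.23). With the trend of each library with transcript length removed, its log2 fold change was -0.081 (adjusted p = 0.223), against -0.15 for PLAU (adjusted p = 0.00355). The principal transcript of PLAUR has 1548 bases and that of PLAU 2321.

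**Figure D1:**
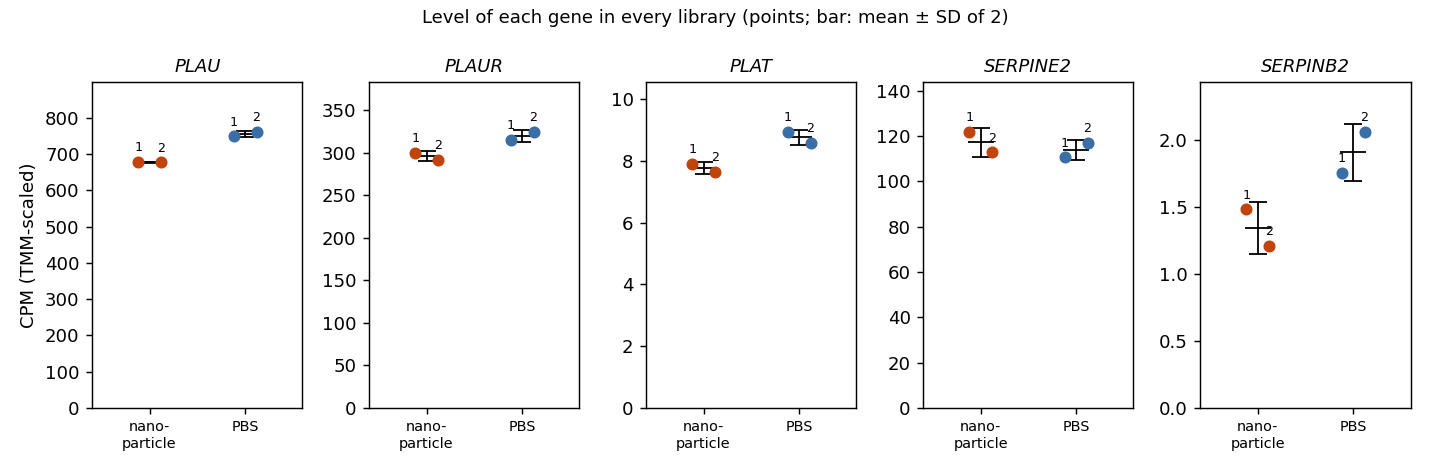
Level of each of the 5 genes in CPM (y axes from 0, a scale for each gene) in the 2 nanoparticle and 2 PBS libraries, with replicate numbers beside the points and bars for the mean ± SD. PLAU had 679 and 677 CPM with nanoparticles and 749 and 761 CPM with PBS, and SERPINE2 is the gene whose groups overlap.

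PLAT, which encodes tissue plasminogen activator, had 198 and 190 counts in the nanoparticle libraries and 199 and 192 in the PBS libraries. Scaled for depth these are 7.92 and 7.64 CPM with nanoparticles and 8.95 and 8.59 CPM with PBS, so the groups did not overlap. Its means were 7.78 ± 0.201 CPM and 8.77 ± 0.251 CPM (SD, n = 2 each). The log2 fold change of -0.17 (SE 0.10, edgeR adjusted p = 0.433) was close in size to that of PLAU but did not pass. At this depth its 95% interval runs from a change of -23.7% to one of 3.23%, a range that holds both no change and the change measured for PLAU.

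SERPINE2, also called protease nexin 1, is a secreted serpin that traps thrombin and both plasminogen activators. It had 122 and 113 CPM in the nanoparticle libraries and 111 and 117 CPM in the PBS libraries, and the groups overlapped. Its means were 117 ± 6.39 CPM with nanoparticles and 114 ± 4.48 CPM with PBS (SD, n = 2 each), with a log2 fold change of 0.044 (SE 0.042, edgeR adjusted p = 0.649). The 95% interval, from -2.89% to 9.52%, does not reach the change measured for PLAU. Its sign depended on 1 library, at -0.012 on the log2 scale when nanoparticle replicate 1 was left out (edgeR adjusted p = 0.938) and 0.099 when nanoparticle replicate 2 was left out (0.487).

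SERPINB2, or plasminogen activator inhibitor type 2, is a serpin that inhibits urokinase and stays largely inside the cell. It had the fewest counts of the 5 genes, with 37 and 30 counts in the nanoparticle libraries and 39 and 46 in the PBS libraries. The levels were 1.48 and 1.21 CPM with nanoparticles and 1.75 and 2.06 CPM with PBS, without overlap. Its log2 fold change of -0.50 had the largest size and the largest error of the 5 (SE 0.23, edgeR adjusted p = 0.266), and the 95% interval runs from a change of -49.3% to one of -1.8%. Leaving out single libraries moved it between -0.66 (without nanoparticle replicate 1) and -0.36 (without nanoparticle replicate 2).

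In all, 1 of the 5 genes passed the test, and 4 of the 5 lay lower in both nanoparticle libraries than in both PBS libraries. Of all tested genes 23.2% lay lower in this way and 23.7% higher. The 5 genes had a median log2 fold change of -0.15, which is the value of PLAU itself, against 0.00056 over all tested genes. The genes were chosen with earlier results known, so nothing is read from these counts or from the median. Fewer cells that express a gene and less RNA of it per cell cannot be told apart in bulk RNA.

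Compared per kilobase of principal transcript, the order of levels was the same in every library: PLAU, PLAUR, SERPINE2, PLAT and SERPINB2. PLAU stood at 292 ± 0.622 CPM per kilobase with nanoparticles and at 325 ± 3.71 with PBS (SD, n = 2 each), number 168 of 15496 tested genes with a known length. PLAUR stood at 191 ± 3.73 with nanoparticles and 206 ± 4.40 with PBS, SERPINE2 at 53.4 ± 2.91 and 51.8 ± 2.04, PLAT at 2.87 ± 0.0743 and 3.24 ± 0.0927, and SERPINB2 at 0.623 ± 0.09 and 0.884 ± 0.1, in CPM per kilobase. All neighbours in this order differed by more than the spread between replicates. With the union of all exons as length PLAU stood at 230 CPM per kilobase with nanoparticles and 256 with PBS, PLAUR at 66.4 and 71.7 and SERPINE2 at 13.2 and 12.8, and the order did not change.

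Ratios within a library do not depend on how libraries are scaled. As counts per kilobase of principal transcript, PLAU over SERPINE2 was 5.27 and 5.68 with nanoparticles and 6.41 and 6.16 with PBS. The size of each ratio depends on the length used, though the percent difference between the groups does not. With the union of exons as length, nanoparticle means were 230 CPM per kilobase for PLAU, 66.4 for PLAUR and 13.2 for SERPINE2. The ratio of PLAU to SERPINE2, activator to inhibitor, was lower in both nanoparticle libraries, with a difference between the means of -12.8%. It joins the fall of PLAU to the change of SERPINE2, which did not pass (log2 0.044, edgeR adjusted p = 0.649). The ratio of PLAUR to SERPINE2 was 3.49 and 3.67 with nanoparticles and 4.03 and 3.93 with PBS, a difference of -10.2%, again without overlap. The ratio of PLAU to PLAUR moved less, at 1.51 and 1.55 with nanoparticles and 1.59 and 1.57 with PBS, a difference of -2.97% without overlap. The ratio of PLAU to PLAT, at 100 and 103 with nanoparticles and 97.7 and 103 with PBS, overlapped, with a difference of 1.21%. No test was made of the ratios: with 2 libraries a group the smallest p of a two-sided exact permutation test is 0.33. The ratios restate the levels of the genes given above. The share of other gene pairs that separate in this way was not counted, so nothing is read from the lack of overlap.

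**Figure D2:**
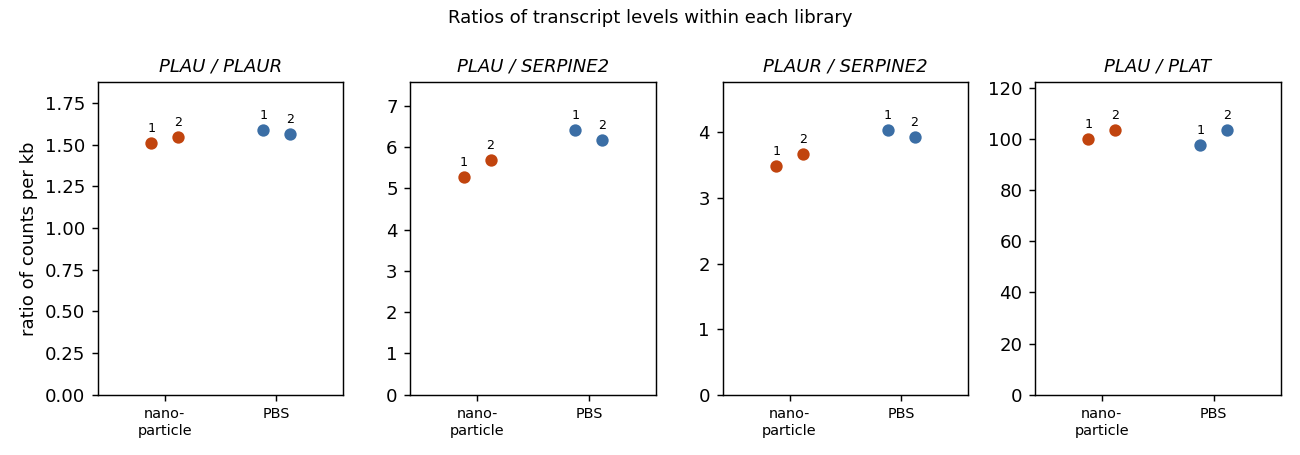
Ratios of counts per kilobase of principal transcript (y axes from 0, a scale for each ratio) in each library, with replicate numbers beside the points and no error bars. PLAU over SERPINE2 was 5.27 and 5.68 in the nanoparticle libraries and 6.41 and 6.16 in the PBS libraries, PLAU over PLAUR was between 1.51 and 1.59 in all 4 libraries, and PLAU over PLAT overlapped between the groups.

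The genes lie apart in the genome. On GRCh38 with GENCODE 29 gene models, PLAU lies on chromosome 10 from 73909177 to 73917497, PLAUR on chromosome 19 from 43646095 to 43670547 and PLAT on chromosome 8 from 42175233 to 42207724. SERPINE2 lies on chromosome 2 from 223975112 to 224039319 and SERPINB2 on chromosome 18 from 63871692 to 63903890. C10orf55, on the opposite strand, covers 31.1% of the exon bases of PLAU. C10orf55 was given only 74 and 86 counts with nanoparticles and 86 and 98 with PBS, against 16669 or more for PLAU. Without the strand setting of the counting, it is not known whether other reads in the shared bases were counted for PLAU or for neither gene. C10orf55 had 2.96 and 3.46 CPM with nanoparticles and 3.87 and 4.38 CPM with PBS (log2 fold change -0.36, edgeR adjusted p = 0.24). Per kilobase that was 1.25 and 1.46 CPM with nanoparticles and 1.64 and 1.86 CPM with PBS, where PLAU had 293 and 292 CPM with nanoparticles and 323 and 328 CPM with PBS. SERPINB10 shares 19.9% of the exon bases of SERPINB2 on the same strand and had 0 counts in every library, which allows up to 3 counts in each. Since SERPINB10 was given no read, any reads in the shared bases were counted for SERPINB2 or for neither gene. Which of these holds is not known, so the level of SERPINB2 may be too low.

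The profile of PLAU over the 4 libraries was closest, among 11106 other genes of at least 5 CPM, to those of OBSL1, KRT18, UNG, CMTM8 and TCEAL3. Distances between centred log2 CPM profiles were between 0.0098 for OBSL1 and 0.016 for TCEAL3. KRT18, a keratin of simple epithelia, had 927 and 915 CPM with nanoparticles and 1019 and 1032 CPM with PBS, and its log2 fold change of -0.16 was near that of PLAU (edgeR adjusted p = 0.00053). UNG, a uracil-DNA glycosylase, passed as well (log2 -0.16, edgeR adjusted p = 0.0128), while OBSL1, CMTM8 and TCEAL3 did not. The profiles nearest to PLAUR were those of ERBB2, BANF1 and BABAM2, and those nearest to PLAT were ENDOG, PGP and RNF113A. For SERPINE2 they were ZNF90, PPME1 and KDM4B. For SERPINB2 the nearest, ZFPM1, CEBPD and STARD7-AS1, were at distances of 0.13 to 0.20. With 4 libraries such likeness is a description and many genes share it. Since these genes were picked by their profiles over the same libraries, a fold change near the member's follows from the choice.

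Of 54 other genes of the plasminogen activation system, placed in 7 lists, 41 could be tested and 1 passed, which was higher with nanoparticles. That is 2.44% of those tested, near the 2.58% over all genes. The 41 had a median log2 fold change of -0.014, and 23 lay below 0. The gene that passed was IGF2R, in the list of clearance and collagen receptors, which encodes the receptor that takes mannose 6-phosphate-tagged enzymes and IGF2 to lysosomes and also binds the urokinase receptor. It rose to 223 and 224 CPM with nanoparticles, against 200 and 203 CPM with PBS (log2 0.15, SE 0.032, edgeR adjusted p = 0.0143). Its principal transcript is 14044 bases long, and with the length trend removed its log2 fold change was 0.018 (adjusted p = 0.867). Nor did it pass by DESeq2 (0.0648) or when any library was left out (adjusted p between 0.0912 and 0.502). LRP1, named after its values were seen, is the endocytic receptor that clears urokinase-serpin complexes, and it had 19.4 and 21.1 CPM with nanoparticles and 17.0 and 17.6 CPM with PBS (log2 0.23, SE 0.076, edgeR adjusted p = 0.123). The principal transcript of LRP1 is longer than that of IGF2R, at 14897 bases, and its value with the length trend removed is not given here.

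Plasminogen itself was not detected: PLG had 0 counts in all 4 libraries, which allows up to 3 counts, or 0.12 CPM, in each nanoparticle library and 0.13 CPM in each PBS library. This gene, singled out after its values were seen, encodes the substrate of both activators, which is made mainly by the liver and reaches cells through blood or serum. Of 7 genes of plasmin and plasminogen binding 5 were tested and 0 passed, with 3 at an unadjusted p under 0.05. Of all tested genes 16.8% had an unadjusted p under 0.05, against which this count and those of the lists that follow are to be read. S100A10, a plasminogen-binding partner of annexin A2, had 196 and 206 CPM with nanoparticles and 214 and 221 CPM with PBS (log2 -0.11, SE 0.035, edgeR adjusted p = 0.0972). ANXA2, which encodes annexin A2, had 868 and 869 CPM with nanoparticles and 898 and 922 CPM with PBS (log2 -0.067, SE 0.023, edgeR adjusted p = 0.14).

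Among 4 tested genes for proteases that activate the proenzyme of urokinase, or inhibit those proteases, 0 passed and 1 was at an unadjusted p under 0.05 (all genes, 16.8%). CTSB, the lysosomal protease cathepsin B, had 263 and 255 CPM with nanoparticles and 273 and 272 CPM with PBS (log2 -0.073, edgeR adjusted p = 0.233). SPINT2, a Kunitz-type inhibitor at the cell membrane, differed by a log2 fold change of -0.18 (SE 0.12, edgeR adjusted p = 0.495). Of 6 tested other serpins 0 passed, with 1 at an unadjusted p under 0.05 (all genes, 16.8%). SERPINB9, the inhibitor of granzyme B, had 37.2 and 37.7 CPM with nanoparticles and 27.4 and 35.7 CPM with PBS, so that PBS replicate 1 lay apart (log2 0.25, edgeR adjusted p = 0.105). SERPINB6, an intracellular serpin, had a log2 fold change of -0.062 (edgeR adjusted p = 0.357).

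Among 7 tested partners of the urokinase receptor 0 passed, and 1 was at an unadjusted p under 0.05 (all genes, 16.8%). ITGAV, the alpha chain of the vitronectin-binding integrins, had 102 and 103 CPM with nanoparticles and 92.0 and 96.1 CPM with PBS (log2 0.12, edgeR adjusted p = 0.101). ITGB3, a beta chain that pairs with it, differed by -0.23 on the log2 scale (SE 0.12, edgeR adjusted p = 0.352). In the Ly6/uPAR family, whose proteins share the fold of the receptor's domains, 0 of 4 passed, with 1 at an unadjusted p under 0.05 (all genes, 16.8%). CD59, a lipid-anchored inhibitor of complement, had 258 and 260 CPM with nanoparticles and 280 and 278 CPM with PBS (log2 -0.11, edgeR adjusted p = 0.0714), and LYPD3 differed by -0.35 on the log2 scale (SE 0.23, edgeR adjusted p = 0.47).

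Of 8 transcription factors known to act on PLAU, 0 passed and 2 were at an unadjusted p under 0.05 (all genes, 16.8%). ETV4, an ETS factor of the PEA3 group, had 48.2 and 49.9 CPM with nanoparticles and 57.7 and 53.1 CPM with PBS (log2 -0.17, SE 0.051, edgeR adjusted p = 0.0751). ETS1, another ETS factor, had 239 and 268 CPM with nanoparticles and 276 and 279 CPM with PBS, with nanoparticle replicate 1 below the other 3 libraries (log2 -0.13, SE 0.040, edgeR adjusted p = 0.0932). With a stricter filter, a mean of at least 50 counts, CD59, ETS1 and ETV4 passed lower and SERPINB9 passed higher, beside IGF2R, while of all 12542 genes in that fit 602 passed, or 4.8%, against 2.58% as reported.

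**Figure D3:**
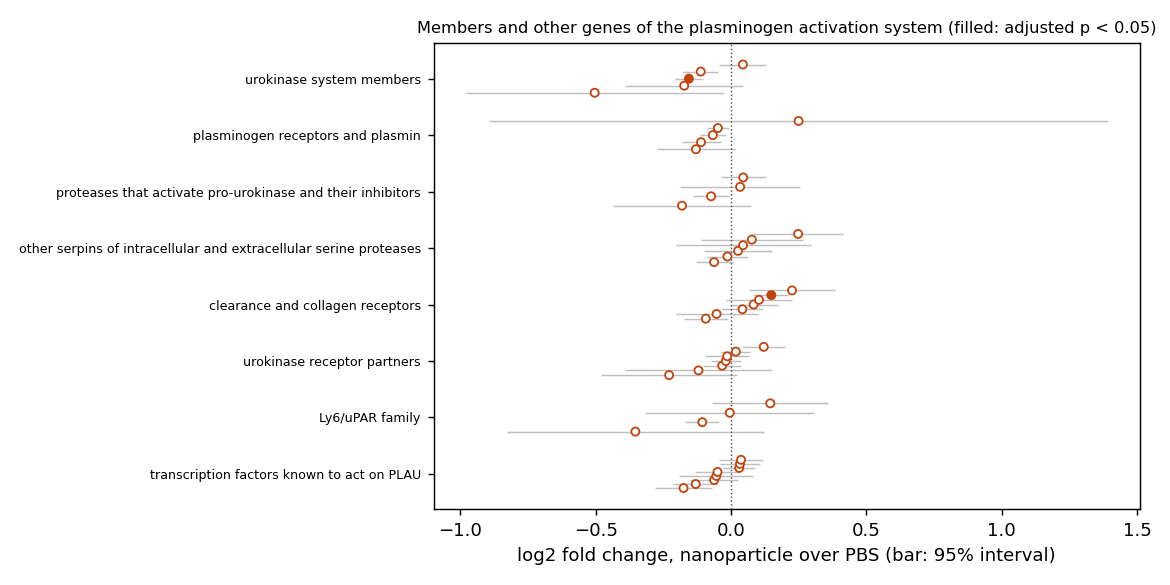
Log2 fold change, nanoparticle over PBS (x axis), of the 5 genes and of the 41 tested genes in 7 other lists of the system (rows), with 95% intervals as bars and filled points for an adjusted p under 0.05. PLAU, at -0.15, and IGF2R, at 0.15, are the filled points.

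Markers of other cell types were near 0. The 7 monocyte and macrophage markers, cells that also make urokinase and SERPINB2, summed to 0.16 and 0.281 CPM in the nanoparticle libraries and to 0.225 and 0.134 CPM in the PBS libraries, and PTPRC and AIF1 had 0 counts in all 4. The 6 endothelial markers summed to 0.844 to 1.04 CPM with nanoparticles and 0.716 to 0.854 CPM with PBS, with EMCN at 0 counts in all 4 libraries. The 6 fibroblast markers summed to 1.37 to 1.52 CPM with nanoparticles and 1.35 to 1.61 CPM with PBS. Of 4 genes listed as markers of the line, KRT8, KRT18 and VIM were abundant. EPCAM was near 0, with 5 to 7 counts per library, and by its level was not a marker of these cells. These 4 summed to 3762 and 3690 CPM with nanoparticles and to 3980 and 4065 CPM with PBS. The 3 that could be tested fell, VIM by 0.092, KRT8 by 0.11 and KRT18 by 0.16 on the log2 scale (edgeR adjusted p = 0.0137, 0.024 and 0.00053). Of all tested genes 0.83% passed lower. By mean CPM, KRT8, KRT18 and VIM stood at percentiles 99.0, 99.7 and 99.9 of the tested genes, and PLAU at 99.3. These 3 markers moved in the same direction as PLAU, and their part in that result was not tested.

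**Figure D4:**
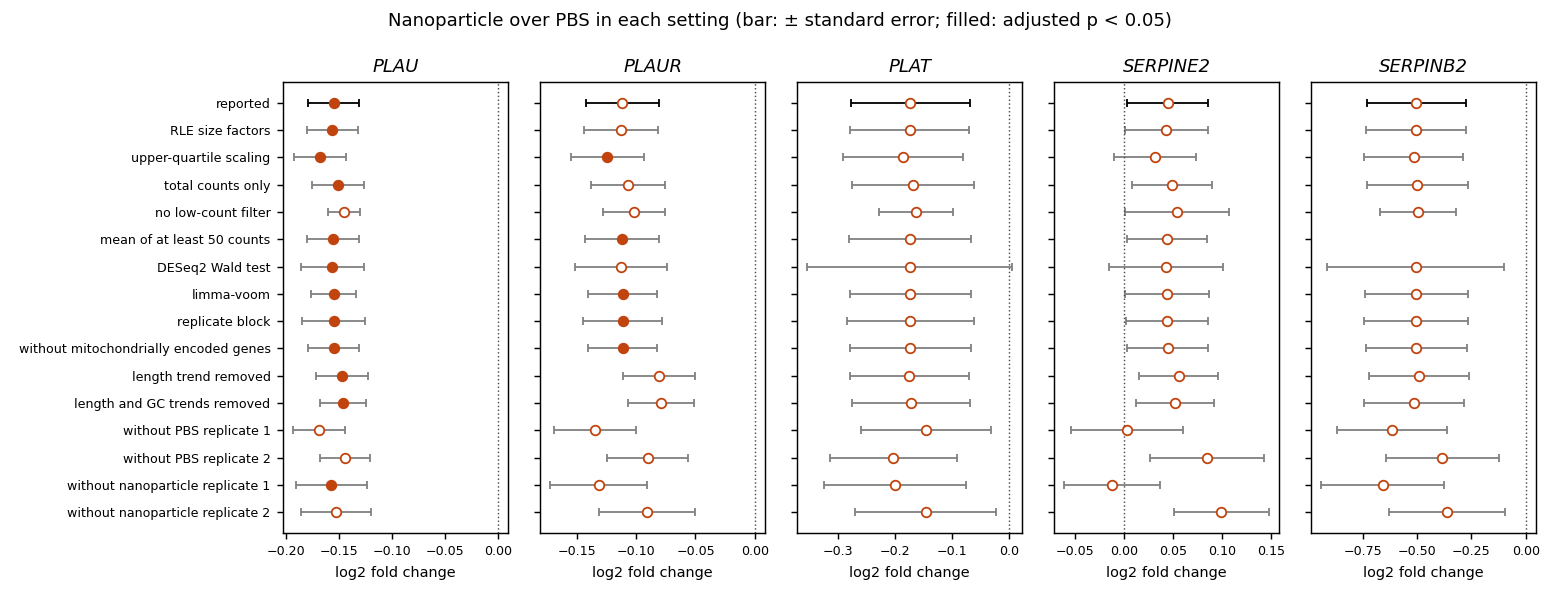
Log2 fold change, nanoparticle over PBS (x axes, a scale for each gene), of the 5 genes in the reported fit and in each alternative (rows), with bars of 1 standard error and filled points for an adjusted p under 0.05. PLAU stayed between -0.17 and -0.14, PLAUR between -0.13 and -0.079, and SERPINE2 crossed 0 without nanoparticle replicate 1.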

How the data were processed

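Polyadenylated RNA of H1299 cells was sequenced in 4 libraries, 2 per group, grouped by the treatment label. Per the labels' protocols, the kit was a stranded mRNA kit. The authors deposited 1 file per library with read counts for each Ensembl gene, as whole numbers without normalization. The submitters' processing notes name GRCh38 and the tools STAR 2.7.6a, HTSeq 2.0.2, cutadapt 3.5, bcl2fastq 2.20 and Picard. The strand setting and the gene annotation used for counting are not given in the sources. The 5 summary rows for reads given to no gene held 13.7% to 14.8% of reads and stayed out of library sizes and tests.

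Of 61541 gene rows, 61369 were named from a table of gene symbols and 159 more from GENCODE 29. GENCODE 29 on GRCh38 also gave coordinates, exon overlaps, transcript lengths and GC content, and it may be another release than the one counted with. After the filterByExpr filter and TMM scaling (trimmed mean of M-values), all tested genes were fitted together by the quasi-likelihood method of edgeR 4.0.16 in R 4.3.3 (glmQLFit, then glmQLFTest, two-sided). P-values were adjusted by Benjamini-Hochberg over all tested genes, at a threshold of 0.05. A standard error is the fitted coefficient divided by the square root of its F statistic, and intervals are at the 95% level. Replicates were first compared by chi-square over genes. The value per degree of freedom was 1.95 for the nanoparticle pair and 1.78 for the PBS pair, and no library was treated as a copy. The procedure was also run on simulated counts. The fold changes set there were all larger than that of PLAU, so the run does not vouch for a change as small as that.

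The members, the lists and the removal of trends with length and GC content were chosen with earlier results of these data known. Beside the members, the text names list genes that passed the test, the pair with the smallest p where none did, genes whose exons overlap a member, and the genes nearest in profile (Euclidean distance of log2 CPM centred over the libraries, among genes of at least 5 CPM). Trends were taken out of each library as an offset, from a spline with 4 degrees of freedom fitted robustly (MASS 7.3.60.0.1). The other alternatives were 3 scalings, 2 filters, DESeq2 1.42.0 without independent filtering, limma-voom (limma 3.58.1), a replicate block, a fit without mitochondrially encoded genes and fits without each library. Some items that belong to the system are not reported here. Figures were drawn with matplotlib 3.10.9.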

Additional observations from a re-analysis of the deposited data

How the results depend on the processing

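PLAU, PLAUR, PLAT and SERPINB2 kept a negative log2 fold change under every alternative tried. SERPINB2 has no value under the filter of a mean of at least 50 counts, which it does not reach. PLAU passed in 11 of 15 alternatives. Without a low-count filter its log2 fold change was -0.15 and it did not pass, and 0 genes passed at all, with 2297 at an unadjusted p under 0.05 and 90 passing by DESeq2 on the filtered table, and the cause was not tested. PLAUR passed with upper-quartile scaling (log2 -0.12) and, at -0.11 each, with the stricter filter, by limma-voom, without mitochondrially encoded genes and with the replicate block. Leaving out each library in turn gave ranges of log2 fold change of -0.17 to -0.14 for PLAU, -0.13 to -0.09 for PLAUR, -0.20 to -0.14 for PLAT, -0.012 to 0.099 for SERPINE2 and -0.66 to -0.36 for SERPINB2. These fits have a lone library in a group, which is assumed to vary like the other group's.

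Of all tested genes, 407 passed in the reported test, 90 by DESeq2, 228 with the length trend removed and between 0 and 200 when a library was left out. Upper-quartile scaling split the calls into 223 higher and 190 lower, against 276 and 131 as reported, and with the length trend removed 94 were higher and 134 lower. Of the 41 other genes of the system 1 passed, against 2 with upper-quartile scaling and 2 without mitochondrially encoded genes (IGF2R and CD59 in each), 5 with the stricter filter, 0 without a low-count filter, 0 by DESeq2 and 0 to 1 when a library was left out. The gene and its direction changed with the setting: with the length trend removed, and with length and GC trends removed, the 1 gene that passed was CD59, lower, in place of IGF2R, higher, and without nanoparticle replicate 2 it was ETS1, lower.

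The groups share replicate numbers, and same-numbered libraries deviated together only weakly over the genes compared (Pearson correlation of 0.035 across 11107 genes). Such a correlation cannot show whether same-numbered libraries shared a batch. The share of counts from mitochondrially encoded genes was higher in replicate 2 of both groups. It was 0.371% and 0.512% in nanoparticle replicates 1 and 2, and 0.31% and 0.428% in PBS replicates 1 and 2. With the replicate block 759 genes passed, and 6 of the other genes of the system, while PLAU stood at -0.15 on the log2 scale (edgeR adjusted p = 2.49e-05) and PLAUR at -0.11 (edgeR adjusted p = 0.0239).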
